A study of Mus musculus with 12 samples.

Results

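CD4 intraepithelial lymphocytes of the mouse small intestine that had lost the transcription factor ThPOK, but did not carry CD8a, were compared with those that kept ThPOK. The comparison takes the 4 arrays titled THPOK-CD8a- and the 4 titled THPOK+CD8a-, 8 of the 12 arrays of the series, and sets them against each other within each host and replicate. The cells came from mice of the strain B6-ThPOK-GFP, in which a green fluorescent protein reports ThPOK, or from RAG-/- recipients. These recipients lack mature T and B cells of their own and had received naive CD4 T cells of such reporter mice as a colitis model. The first host is labelled WT and the second TR. The labels give an age of 10 to 12 weeks. The reporter allele is common to all 12 arrays. Each host gave 3 sorted subsets, THPOK+CD8a-, THPOK-CD8a- and THPOK-CD8a+, called here ThPOK+, CD8a- and CD8a+ cells, with 2 arrays per host and subset. A set is the 3 arrays of 1 host and replicate, and the 4 sets are called WT 1, WT 2, TR 1 and TR 2. No label says that replicates came from separate animals, so each p-value reflects how much these arrays scatter and that scatter can be technical.

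ThPOK, encoded by Zbtb7b, holds T cells in the CD4 helper lineage and keeps genes of the CD8 cytotoxic lineage silent, and Runx3 acts against it in the CD8 lineage. In the gut epithelium some CD4 T cells lose ThPOK, gain Runx3 and the CD8 alpha homodimer, and take on features of cytotoxic intraepithelial lymphocytes. The question behind the comparison is what differs in cells without ThPOK that are still without CD8a. The arrays are sorted populations at 1 time, and the order of events was not measured.

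Before the results, 3 features of the arrays bear on them. Arrays of replicate 1 were dimmer, with median raw intensities of 113.6 to 130.8 against 206.7 to 246.2 in replicate 2, and had more probes detected, 12024 to 13091 against 6721 to 8195. For the sets of replicate 1 the host named in one deposited table is opposite to that in the other, so results over both hosts do not depend on that label and results by host do. No probe carried the symbol Zbtb7b. RefSeq gives the older symbol ZFP67 to both Zbtb7b and Zfp317, so the 1 probe of that name cannot be assigned to either. Its log2 signal was 6.21 ± 1.05 (SD, n = 4) in ThPOK+, 6.57 ± 1.30 in CD8a- and 5.91 ± 0.48 in CD8a+ cells, it was detected on 2, 2 and 0 arrays of these subsets, and CD8a- cells differed from ThPOK+ cells by 0.36 ± 0.28 (SE; limma, adjusted p = 0.767). The loss of ThPOK therefore rests on the sort alone. The probe of Runx3 was detected on 0 of 12 arrays. Cd3e, a chain of the T cell receptor complex, was detected on 4 of 4 arrays of either subset, with mean log2 signals of 10.55 in ThPOK+ and 10.82 in CD8a- cells. The transcripts of the coreceptors did not separate the subsets. Cd4 was 10.48 ± 0.53 (SD, n = 4) in ThPOK+ and 10.69 ± 0.10 in CD8a- cells, with a difference of 0.21 ± 0.20 (SE; limma, adjusted p = 0.827). Cd8a was 7.53 ± 0.36 and 7.82 ± 0.42, with a difference of 0.28 ± 0.21 (limma, adjusted p = 0.744). Cd8b1, the beta chain of CD8, was detected on 2 of 4 and 1 of 4 arrays.

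Cells that had lost ThPOK had less RNA of a chemokine receptor and a cytokine receptor of Th17 cells and of a costimulatory receptor, and more RNA of 2 cytotoxic granule genes and of an autophagy gene. Of 10612 genes tested, 3 rose (0.0283%) and 3 fell (0.0283%), in all 6 genes (0.0565%), by limma with the set as a block and a Benjamini-Hochberg adjusted p under 0.05. At an unadjusted p under 0.05, 475 genes were higher (4.48%) and 443 lower (4.17%). The same direction in 4 of 4 sets was seen for 1017 higher genes (9.58%) and 888 lower genes (8.37%), and groups that did not overlap for 146 higher (1.38%) and 138 lower genes (1.3%). Values are log2 signals after background correction and quantile normalization, and a difference of 1 is a doubling.

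**Figure D1:**
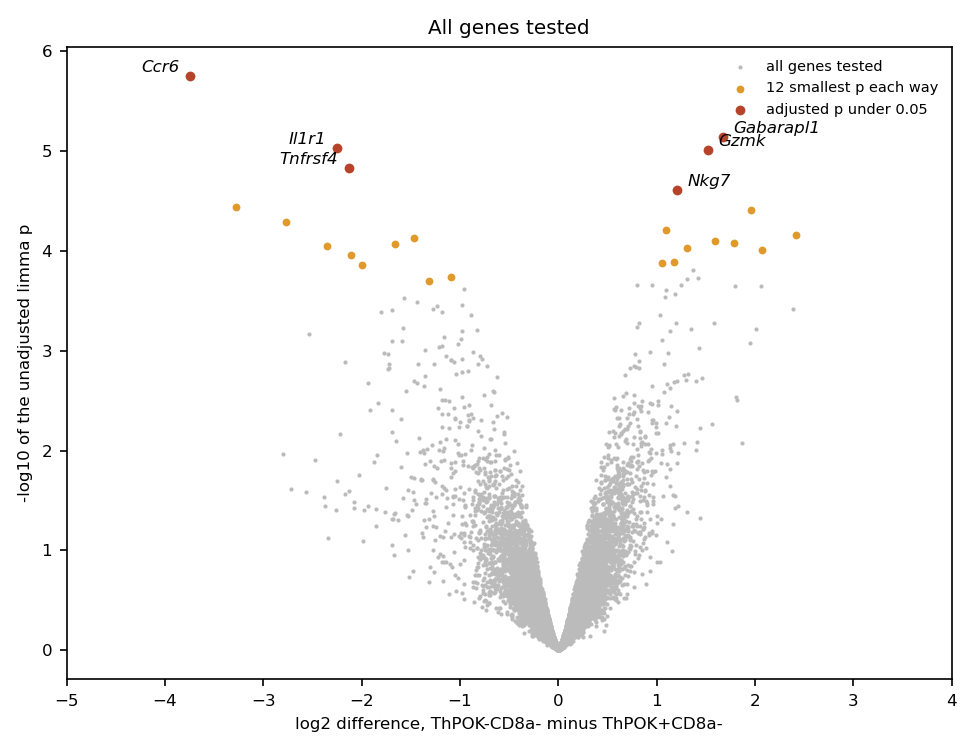
Log2 difference between CD8a- and ThPOK+ cells (x axis) against -log10 of the unadjusted limma p (y axis) for each of the 10612 genes tested. Red points are the 6 genes past the adjusted threshold, with Ccr6 farthest to the left, and orange points are the others among the 12 smallest p in each direction.

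Ccr6, the receptor of the chemokine CCL20 on Th17 cells, fell most among the called genes. Its log2 signal was 9.93, 10.64, 10.70 and 10.79 on the ThPOK+ arrays of WT 1, WT 2, TR 1 and TR 2, and 6.31, 5.82, 7.83 and 7.12 on the CD8a- arrays. Every ThPOK+ array lay above every CD8a- array, with a gap of more than 2 log2 units between the groups. The gene fell by 3.75 ± 0.35 (SE; limma, adjusted p = 0.0187), and its other probe was lower by 1.32.

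Il1r1, the receptor through which interleukin-1 supports Th17 cells, was at 8.81, 9.17, 9.13 and 9.96 on the ThPOK+ arrays, in the same order, and at 7.08, 7.06, 6.62 and 7.31 on the CD8a- arrays. The groups did not overlap, and the TR 2 array was the highest of its group in both subsets. Il1r1 fell by 2.25 ± 0.26 (limma, adjusted p = 0.0263). Tnfrsf4, which encodes the costimulatory receptor OX40 of activated helper and regulatory T cells, was at 7.33, 8.16, 7.40 and 7.27 on ThPOK+ arrays and at 5.43, 5.10, 5.83 and 5.27 on CD8a- arrays. It was detected on 4 of 4 arrays in the first group and on 1 of 4 in the second, so its level in CD8a- cells lay near background. Tnfrsf4 fell by 2.13 ± 0.26 (limma, adjusted p = 0.0314).

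Gabarapl1, a member of the family that builds autophagosome membranes, was at 6.99, 7.64, 6.78 and 7.49 on the ThPOK+ arrays and at 8.87, 9.44, 8.51 and 8.78 on the CD8a- arrays. The 4 differences, 1.87, 1.80, 1.72 and 1.28, were close to each other, and WT 2 was highest in both subsets. It rose by 1.67 ± 0.18 (limma, adjusted p = 0.0263). Gzmk, a serine protease of cytotoxic granules, was at 8.50, 7.17, 7.13 and 6.85 on the ThPOK+ arrays and at 9.57, 8.63, 9.03 and 8.51 on the CD8a- arrays. The WT 1 ThPOK+ array reached almost to the lowest CD8a- arrays, and the groups still did not overlap. Gzmk rose by 1.52 ± 0.17 (limma, adjusted p = 0.0263).

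Nkg7, a granule membrane protein of cytotoxic T and NK cells, was already bright in ThPOK+ cells, at 9.59, 9.18, 8.95 and 9.81. On the CD8a- arrays it was at 10.56, 10.54, 10.37 and 10.90, above every ThPOK+ array. It rose by 1.21 ± 0.15 (limma, adjusted p = 0.0435).

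The call of these 6 genes rested on few arrays, while their direction held in each of 32 alternatives. All 6 were still called in 9 of the 32. The count was 14 without the WT 1 ThPOK+ array, 9 and 12 without the CD8a+ arrays of WT 1 and WT 2, 2 without the CD8a- array of WT 2, 1 without the TR 1 ThPOK+ or the TR 2 CD8a+ array, and 0 without any 1 of the other 6, where 738 to 934 genes had an unadjusted p under 0.05. Of the 6 genes, 5 were among the 9 calls without the WT 1 CD8a+ array. Among the 2 calls without the WT 2 CD8a- array, 1 was of the 6. The count was 2 with host in place of the set block and 0, with 909 at an unadjusted p under 0.05, when only the 8 compared arrays were fitted.

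**Figure D2:**
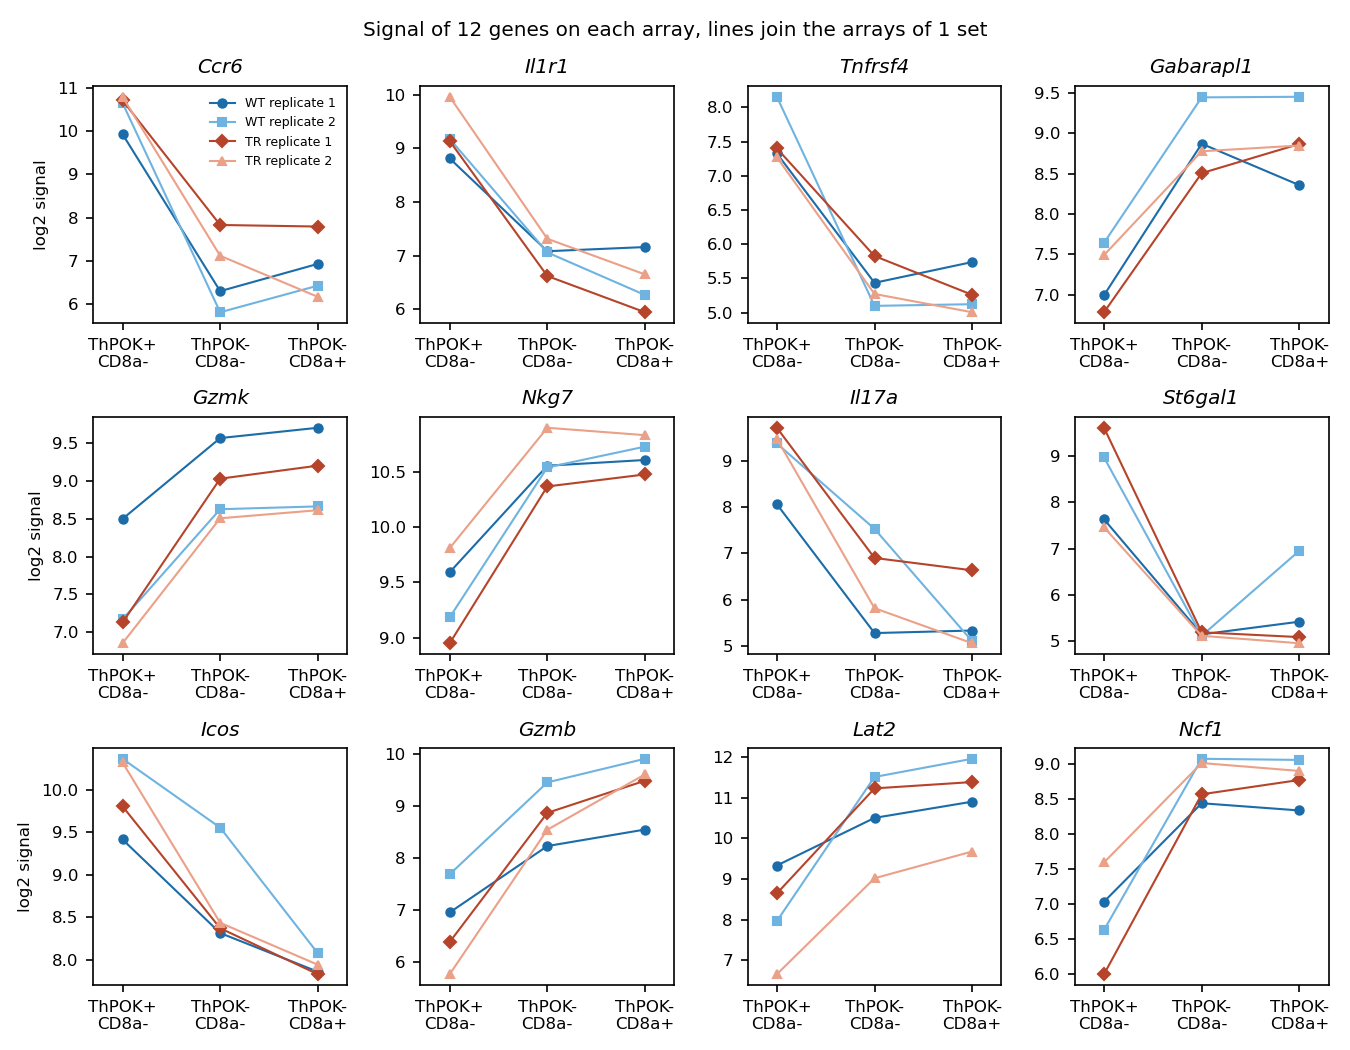
Log2 signal (y axis) of 12 genes on each array by sorted subset (x axis), with a line for each of the 4 sets. The 6 called genes come first, and in each of them every set moves the same way from ThPOK+ to CD8a- cells, while the lines run flatter from CD8a- to CD8a+ cells.

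The upstream sequence of Nkg7 is shown because it is the 1 window among the 6 called genes that holds, within 250 bases of the start, the letters that Runx factors are known to bind. The core, written TGTGGT, was searched on both strands in the 250 bases before the first listed RefSeq start (GRCm38.p6) of each gene. The capitals mark the match, which is on the opposite strand and so reads ACCACA.
Nkg7: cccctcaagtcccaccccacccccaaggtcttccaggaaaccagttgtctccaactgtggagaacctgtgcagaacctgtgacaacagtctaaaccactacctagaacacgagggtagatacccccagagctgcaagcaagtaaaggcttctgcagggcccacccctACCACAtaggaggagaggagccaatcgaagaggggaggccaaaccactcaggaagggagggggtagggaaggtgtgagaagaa
The sequence lies at chr7:43436888-43437137 on the plus strand, with the match 83 bases before the start. The Runx core was in 1 of the 6 windows and in 14.2% of 27025 promoters. A match is a description of the letters, not of binding.

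Among the 16 Th17 genes listed, 13 were tested, and 9 were lower in 4 of 4 sets and 0 higher, against 8.37% lower among all genes. Their median difference was -1.73, beside 0.01 over all genes, and 2 were called. The signature cytokine Il17a was at 8.06, 9.37, 9.71 and 9.47 on the ThPOK+ arrays and at 5.28, 7.53, 6.90 and 5.82 on the CD8a- arrays. The groups did not overlap, and CD8a- cells of WT 2 kept the most. Its difference of -2.77 ± 0.39 did not pass (limma, adjusted p = 0.0577).

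The remaining Th17 genes named here also missed the threshold. Il22, a cytokine that acts on epithelium, differed by -1.999 ± 0.32 (limma, adjusted p = 0.0674), with 6.69 and 7.33 on the ThPOK+ arrays of WT 1 and TR 1 below 7.47 on the CD8a- array of WT 2. Iltifb, a near-identical copy of Il22 that was chosen after its values were seen, was detected on 2 of 4 ThPOK+ and 0 of 4 CD8a- arrays, and signals of the pair cannot be assigned with certainty. Tmem176b, a membrane protein gene of Th17 cells, differed by -2.10 ± 0.33 with groups that did not overlap. Batf, Rora and Irf4, factors shared with other T cells, were chosen after their values were seen and differed by 0.10, 0.14 and 0.31.

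Of the 16 tested cytotoxic effector genes, 8 were higher in 4 of 4 sets, against 9.58% among all genes, and 0 were lower. Their median was 0.71, and Gzmk and Nkg7 were called. Gzmb, which encodes the apoptosis-inducing protease granzyme B, was at 6.96, 7.69, 6.39 and 5.77 on the ThPOK+ arrays and at 8.23, 9.46, 8.87 and 8.55 on the CD8a- arrays. The ThPOK+ values spread over almost 2 log2 units and stayed below all CD8a- values. Its difference was 2.07 ± 0.32 (limma, adjusted p = 0.0577). Fasl, the death ligand, differed by 1.31 ± 0.20 with groups that did not overlap. Perforin, Prf1, was chosen after its values were seen and was about as bright in both subsets, at 12.33 and 12.57.

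Chemokine and cytokine genes of type 1 immunity went both ways. Ccl4, a chemokine of cytotoxic cells, was at 11.47, 9.93, 9.77 and 10.63 on the ThPOK+ arrays and at 12.31, 11.97, 12.20 and 12.48 on the CD8a- arrays. The CD8a- arrays lay close together and above all ThPOK+ arrays, with a difference of 1.79 ± 0.27 (limma, adjusted p = 0.0577). Ccl3, a related chemokine, was detected on 0 of 4 ThPOK+ arrays and 3 of 4 CD8a- arrays. Its mean was at least 1.24-fold higher in the latter (limma, adjusted p = 0.369). In WT 2 it was not higher, at 5.28 on the CD8a- and 5.38 on the ThPOK+ array. Ifng, the type 1 cytokine, differed by 0.66 ± 0.16, and Cxcr3, a chemokine receptor of Th1 cells, by -0.64 ± 0.20. Of 12 tested genes of the Th1 list, 2 were higher and 3 lower in 4 of 4 sets (all genes: 9.58% and 8.37%). The median of the list was 0.03.

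Lat2, Ncf1 and Nr4a2 were among the 12 higher genes with the smallest p. Lat2, an adaptor of Fc and B cell receptor signalling, was at 9.33, 7.96, 8.64 and 6.65 on the ThPOK+ arrays and at 10.50, 11.51, 11.23 and 9.02 on the CD8a- arrays. It was higher in CD8a- cells of 4 of 4 sets, although the TR 2 CD8a- array lay below the WT 1 ThPOK+ array. The difference was 2.42 ± 0.35 (limma, adjusted p = 0.0577), and the other kept probe of Lat2 was higher by 1.21. Ncf1, a subunit of the phagocyte NADPH oxidase, was at 7.03, 6.63, 5.9985 and 7.59 against 8.44, 9.07, 8.57 and 9.01. Its groups did not overlap, and the difference of 1.96 ± 0.27 just missed the threshold (limma, adjusted p = 0.0524). Nr4a2, a nuclear receptor induced by antigen receptor signals, differed by 1.59 ± 0.24. In the list of Fc receptor type adaptors and kinases, 2 genes were higher in 4 of 4 sets (all genes: 9.58%). They were Lat2 and Plcg2, a phospholipase of those pathways. The other 6 tested genes were mixed, and the median was 0.06.

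Receptors of NK type had differences of both signs. Cd244a, which encodes the receptor 2B4, was detected on 2 of 4 ThPOK+ arrays at 6.29, 5.45, 6.66 and 5.68. On the CD8a- arrays it was at 8.36, 7.44, 8.48 and 8.04, above all ThPOK+ arrays, with a difference of 2.06 ± 0.35 (limma, adjusted p = 0.0751). Cd160, a receptor of intraepithelial and NK cells, differed by 1.09 ± 0.19 and Klrg1, an inhibitory receptor, by -0.97 ± 0.31. Of 11 tested genes, 4 were higher and 0 lower in 4 of 4 sets (all genes: 9.58% and 8.37%), with a median of 0.11. Of the 13 tested genes of the CD8 lineage and its cytotoxic regulators, 3 were higher in 4 of 4 sets (all genes: 9.58%). They were Cd244a, Cd160 and the transcription factor Zeb2 at 1.21 ± 0.32, and the median of the list was 0.29.

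Of 9 tested helper lineage genes, 6 were lower in 4 of 4 sets, against 8.37% among all genes, and 0 higher, with a median of -1.31 and no gene called. By set the median was -0.77 in WT 1, -1.05 in WT 2, -1.86 in TR 1 and -0.80 in TR 2. Tcf7, Lef1 and Satb1 of this list are also in the list of naive T cell genes, which were bright on the ThPOK+ arrays of WT 2 and TR 1, and the part of those markers was not tested. Icos, a costimulatory receptor of helper cells, was at 9.42, 10.37, 9.81 and 10.33 on the ThPOK+ arrays and at 8.31, 9.56, 8.37 and 8.44 on the CD8a- arrays. The CD8a- array of WT 2 lay above the lowest ThPOK+ array, so the groups overlapped, and the difference was -1.31 ± 0.22 (limma, adjusted p = 0.0751). Cd28, the main costimulatory receptor, differed by -1.72 ± 0.38, and Cd40lg, the helper ligand for B cells, by -0.89 ± 0.17. Tcf7, a transcription factor of naive and helper T cells, differed by -1.77 ± 0.38 and Satb1, a chromatin organiser, by -1.55 ± 0.38.

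Of 17 tested costimulatory receptors and ligands, 8 were lower and 2 higher in 4 of 4 sets (all genes: 8.37% and 9.58%). Among the lower ones, Cd28, Icos and Cd40lg are also counted in the helper lineage list, and Tnfrsf4 in the regulatory T cell list. The counts of these lists are therefore not separate. The median of the list was -0.89. Tnfsf8, the CD30 ligand, was at 8.25, 9.75, 9.50 and 9.15 against 5.42, 8.29, 7.15 and 6.38, with an overlap of the WT 2 CD8a- array and the WT 1 ThPOK+ array. Its difference was -2.35 ± 0.35 (limma, adjusted p = 0.0577). Tnfsf11, which encodes RANKL, differed by -1.19 ± 0.22 (limma, adjusted p = 0.0976).

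Regulatory T cell genes gave a median of -0.74, with 7 of 12 lower and 1 higher in 4 of 4 sets (all genes: 8.37% and 9.58%). By set the median was -0.23 in WT 1, -1.34 in WT 2, -1.33 in TR 1 and -0.31 in TR 2, and WT 2 and TR 1 are the sets whose ThPOK+ arrays were high in naive T cell markers. The part of those markers in this list was not tested. Il10, an anti-inflammatory cytokine, was at 7.34, 10.34, 10.23 and 6.35 on the ThPOK+ arrays and at 5.61, 8.75, 8.14 and 5.45 on the CD8a- arrays. The arrays of WT 2 and TR 1 were bright in both subsets, so the groups overlapped although each set moved the same way, by a mean of -1.58 ± 0.31 (limma, adjusted p = 0.119). Swap70, the 1 higher gene of this list, is an activator of the GTPase Rac and differed by 1.42 ± 0.24. Th2 genes had a median of -0.54, and 4 of 8, Areg, Ccr8, Il17rb and Il1rl1, were lower in 4 of 4 sets (all genes: 8.37%).

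Of 15 tested genes of homing to and residence in the gut, 3 were higher and 2 lower in 4 of 4 sets. The shares over all genes were 9.58% and 8.37%, and the median of the list was 0.04. Itgae, the CD103 integrin chain that binds E-cadherin, was at 11.47, 10.37, 10.77 and 11.42 on the ThPOK+ arrays and at 12.22, 11.98, 12.36 and 12.03 on the CD8a- arrays. The groups did not overlap, and the difference was 1.14 ± 0.22 (limma, adjusted p = 0.119). Litaf, a regulator of endosomes, differed by 1.19 ± 0.21 and Itga1, a collagen-binding integrin chain that was lower in WT 2, by 1.20 ± 0.33. Of the 18 genes of the T cell receptor complex, 6 were higher in 4 of 4 sets by small amounts (all genes: 9.58%). Of the 18, 0 had an unadjusted limma p under 0.05, and the median of the list was 0.23.

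Gabarapl1 was the 1 called gene of the autophagy list. Of 16 genes of the autophagy list, 3 were higher and 1 lower in 4 of 4 sets (all genes: 9.58% and 8.37%). The median of the list was 0.05. Ulk1, the kinase that starts autophagy, differed by -0.88 ± 0.27. St6gal1, the sialyltransferase that adds terminal sialic acid to N-glycans, was detected on 4 of 4 ThPOK+ arrays at 7.63, 8.97, 9.61 and 7.46 and on 0 of 4 CD8a- arrays. Its signal was not well above background in CD8a- cells, and ThPOK+ cells exceeded it at least 4.82-fold (limma, adjusted p = 0.0524). The bound sets the ThPOK+ mean against the mean over CD8a- arrays of the higher of the lowest detected signal and the signal of the probe. Sdc4, a heparan sulphate proteoglycan, was detected on 3 of 4 and 0 of 4 arrays, with ThPOK+ cells at least 1.59-fold higher (limma, adjusted p = 0.0577).

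The other genes with the smallest p were Ptprk, a receptor tyrosine phosphatase, at 1.18 ± 0.19, Atp8a2, a phospholipid flippase, at 1.06 ± 0.17, and Tnfrsf26, of the TNF receptor family, at least 1.31-fold higher in ThPOK+ cells. The other kept probe of Ptprk differed by only 0.38. A pair of probes without a gene name, LOC100047167 and LOC100046855, differed by 1.09 ± 0.16 and -1.66 ± 0.25.

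**Figure D3:**
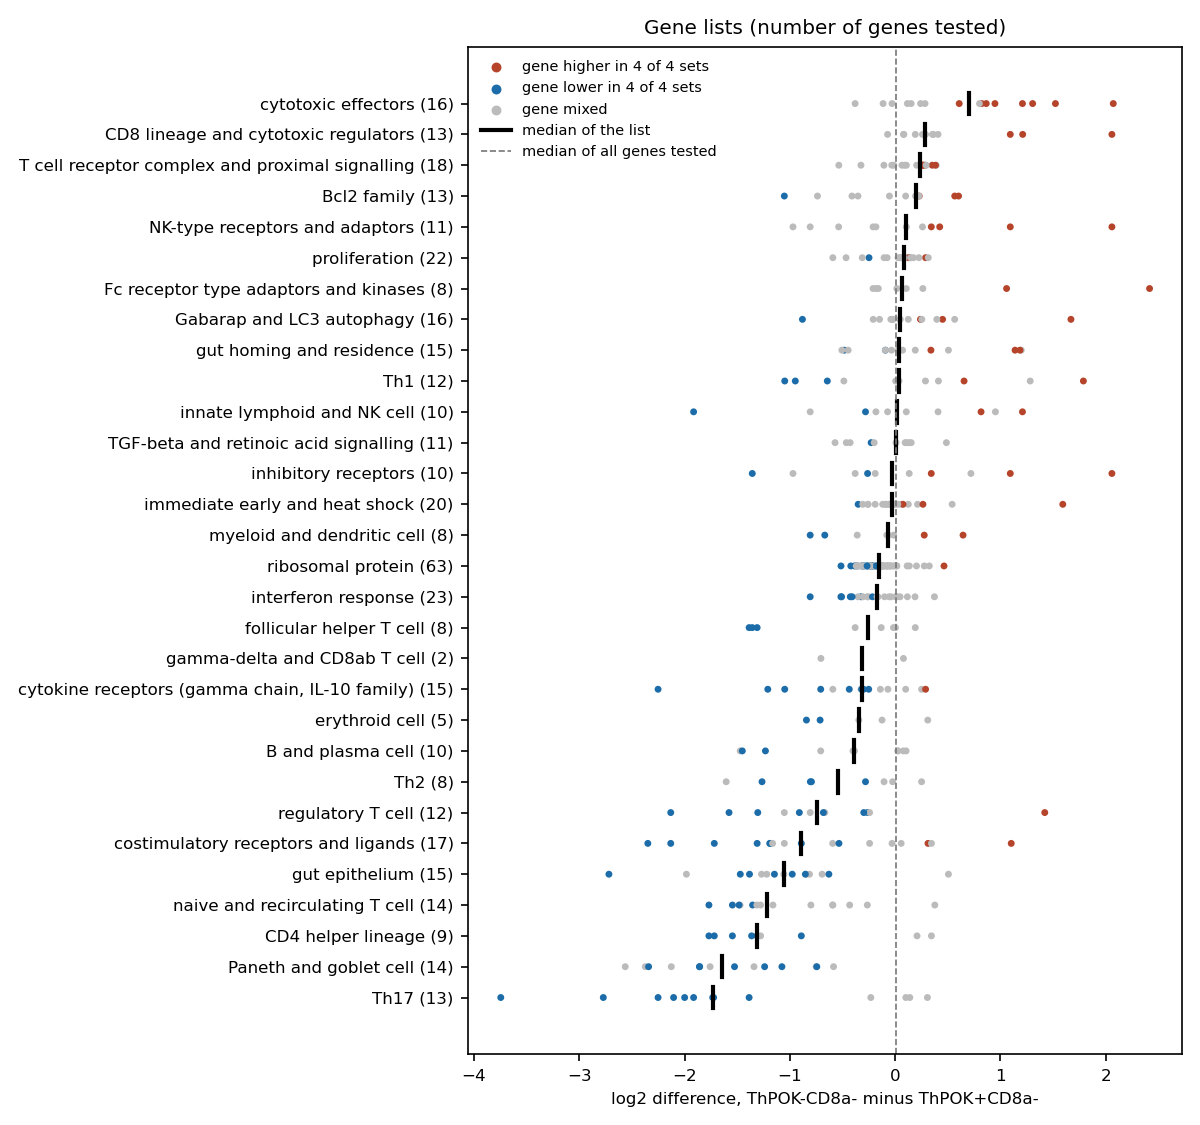
Log2 difference between CD8a- and ThPOK+ cells (x axis) for each tested gene of 30 lists (y axis, number of genes tested in brackets), with the median of each list as a black bar. Th17 genes have the lowest median at -1.73 and cytotoxic effectors the highest at 0.71, and the Paneth and goblet cell markers stand beside the Th17 list at -1.64.

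Markers of gut epithelium and of Paneth and goblet cells, and part of the B and plasma cell list, were brighter on some ThPOK+ arrays, with 0 genes called. The called gene Nkg7, higher in CD8a- cells, is also in the list of innate lymphoid and NK cell markers, whose median was 0.02. Of 14 tested Paneth and goblet cell markers, 14 had a negative difference. Of the 14, 7 were lower in 4 of 4 sets (all genes: 8.37%), and the median of these markers was -1.64. Their mean log2 signal was 9.41, 7.98, 6.58 and 5.95 on the ThPOK+ arrays and 6.19, 6.22, 5.31 and 5.88 on the CD8a- arrays. The excess lay in the sets of WT 1, WT 2 and TR 1, and TR 2 had next to none. Tff3, a goblet cell peptide, was at 10.48, 9.41, 6.26 and 5.20 in ThPOK+ cells and was detected on 1 of 4 CD8a- arrays, and Mmp7, a Paneth cell protease, on 0 of 4. Of 15 tested epithelial markers 7 were lower in 4 of 4 sets (all genes: 8.37%). The list mean was 9.65, 7.51, 6.29 and 6.18 against 7.11, 6.02, 5.89 and 6.19. Of 10 tested B and plasma cell markers, 2 were lower in 4 of 4 sets (all genes: 8.37%). Their list mean was 6.74 to 7.57 in ThPOK+ and 6.16 to 6.86 in CD8a- cells. The lowest differences of this list were -1.47 for Cd74, -1.45 for H2-Ab1 and -1.23 for H2-Aa. Of the 10, 4 had a positive difference, namely Ms4a1 at 0.03, Sdc1 at 0.03, Xbp1 at 0.08 and Fcer2a at 0.10. In sorted populations measured in bulk, fewer cells of a type and less RNA per cell cannot be told apart.

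With the mean of the epithelial markers as a covariate, all 6 genes were still called. With the mean of the Paneth and goblet cell markers 0 of the 6 were, at differences of -3.76 for Ccr6 (limma, adjusted p = 0.0778) and 1.61 for Gzmk (limma, adjusted p = 0.0963). In TR 2, where the excess of these markers was next to none, the 6 differences were -3.67 for Ccr6, -2.65 for Il1r1, -1.9997 for Tnfrsf4, 1.28 for Gabarapl1, 1.66 for Gzmk and 1.09 for Nkg7. That set holds a single array of each subset. The part of the epithelial, Paneth and goblet cell markers in the differences was not tested beyond these fits.

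Naive and recirculating T cell genes had a median of -1.22, with 4 of 14 lower and 0 higher in 4 of 4 sets (all genes: 8.37% and 9.58%). Their mean was 6.96, 8.22, 9.12 and 7.20 on the ThPOK+ arrays and 7.19, 6.83, 6.67 and 6.91 on the CD8a- arrays. The excess lay in WT 2 and TR 1, and in WT 1 the mean was lower in ThPOK+ cells. Klf2, a factor of recirculating T cells, differed by -1.35 ± 0.31 and was detected on 1 of 4 CD8a- arrays. With this mean as a covariate 0 genes were called by limma, 551 at an unadjusted p under 0.05, and without the 2 ThPOK+ arrays of that excess 0 and 556. Ccr6 then differed by -3.96 (limma, adjusted p = 0.239) and -3.755 (limma, adjusted p = 0.415), and Nkg7 by 1.00 and 0.99. The part of these markers in the results was not tested beyond these fits.

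**Figure D4:**
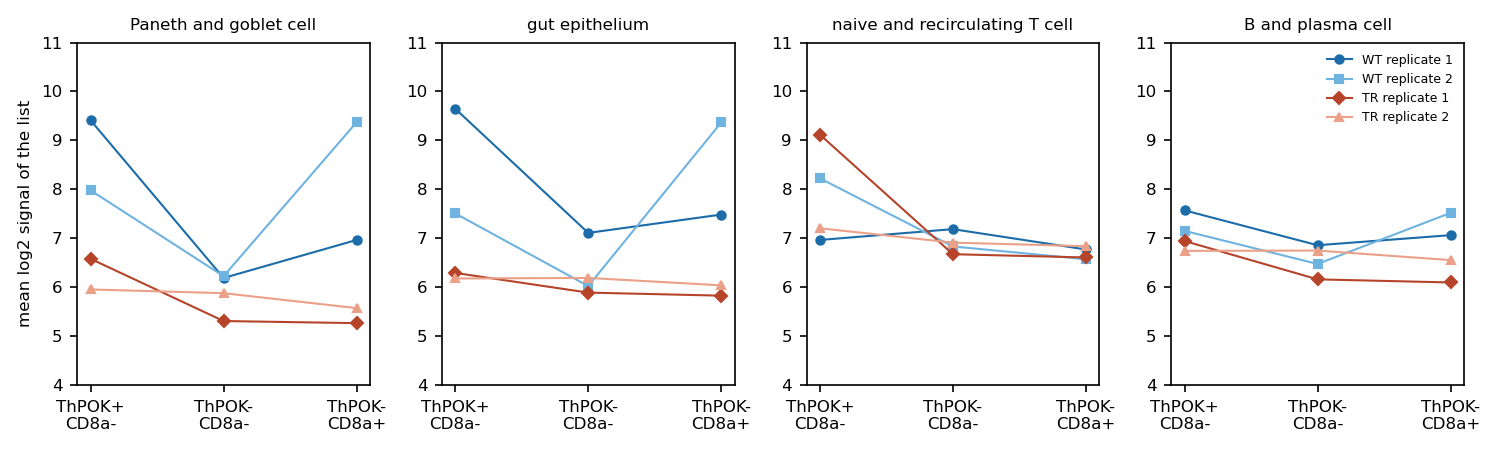
Mean log2 signal (y axis) of 4 marker lists on each array by sorted subset (x axis), 1 line per set. Paneth, goblet and epithelial markers are high on the ThPOK+ arrays of WT 1 and WT 2 and on the CD8a+ array of WT 2. In WT 1 epithelial markers are also at 7.48 in CD8a+ and 7.11 in CD8a- cells, near the 7.51 of WT 2 ThPOK+ cells. Naive markers are high on the ThPOK+ arrays of TR 1 and WT 2.

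The genes were then followed into CD8a+ cells, to see how CD8a- and CD8a+ cells stand to ThPOK+ cells. Both comparisons use the same ThPOK+ arrays, so a shared direction is no separate evidence. Against ThPOK+ cells, CD8a+ cells had 60 called genes (0.565%). Between CD8a+ and CD8a- cells limma called 0 genes (0%), with 541 at an unadjusted p under 0.05 (5.1%). For Ccr6 the differences from ThPOK+ cells were -3.75 ± 0.35 in CD8a- and -3.68 ± 0.35 in CD8a+ cells, and for Gabarapl1 1.67 ± 0.18 and 1.65 ± 0.18. For Gzmk they were 1.52 ± 0.17 and 1.64 ± 0.17, for Nkg7 1.21 ± 0.15 and 1.28 ± 0.15, for Tnfrsf4 -2.13 ± 0.26 and -2.26 ± 0.26, and for Il1r1 -2.25 ± 0.26 and -2.77 ± 0.26. Of the 6, Il1r1 differed most between CD8a+ and CD8a- cells, by -0.51 ± 0.26 (limma, adjusted p = 0.895).

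Icos, Cd28 and Tnfsf11 were lower again in CD8a+ than in CD8a- cells, and are given as examples of that direction only. In this comparison 541 of 10612 genes (5.1%) had an unadjusted limma p under 0.05, in either direction. That is about the share that chance alone gives. Icos stood at 9.98 ± 0.45 (SD) in ThPOK+, 8.67 ± 0.59 in CD8a- and 7.93 ± 0.11 in CD8a+ cells, and the last step was -0.74 ± 0.22 (SE; limma, unadjusted p = 0.00803, adjusted p = 0.895). Cd28 stood at 10.02, 8.30 and 7.01, with a last step of -1.29 ± 0.38 (limma, adjusted p = 0.895). Tnfsf11 stood at 9.29, 8.11 and 7.26. None of these last steps passed the threshold, which does not show that the subsets are alike.

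**Figure D5:**
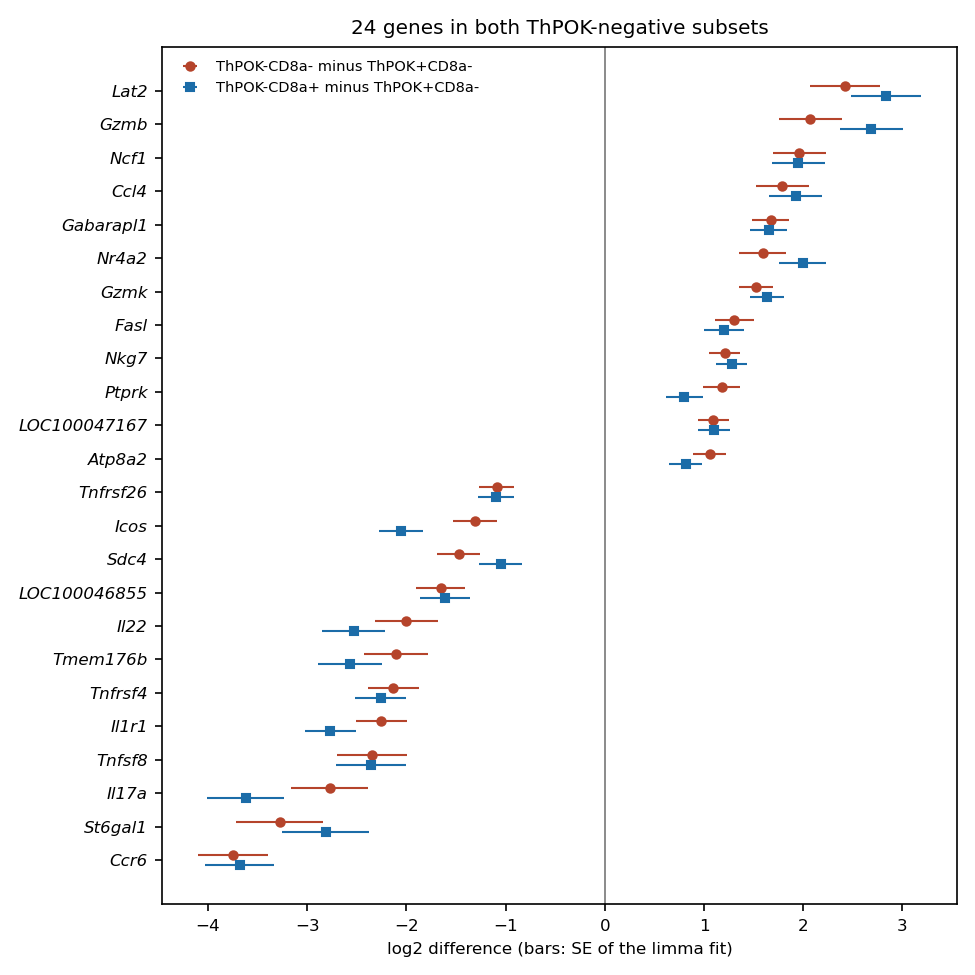
Log2 difference from ThPOK+ cells (x axis, bars are the SE of the limma fit) of the 24 genes with the smallest p in the comparison of CD8a- with ThPOK+ cells (y axis), for CD8a- cells (red) and CD8a+ cells (blue). Both sets of differences use the same ThPOK+ arrays. The 2 points of Ccr6 and of Gabarapl1 lie almost on each other, and those of Il17a and Icos are farther apart.

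Set against the mean of both other subsets, CD8a- cells had 0 called genes (0%) by limma, with 575 at an unadjusted p under 0.05 (5.42%). B3galt6, a galactosyltransferase of proteoglycan linkage, had the smallest p. It was at 7.15 ± 0.46 (SD) in ThPOK+, 6.28 ± 0.60 in CD8a- and 7.64 ± 0.21 in CD8a+ cells, and CD8a- cells differed from the mean of the others by -1.11 (limma, adjusted p = 0.624). Plcd4, a phospholipase C, was detected on 2 of 4 CD8a- arrays and on 0 of 4 arrays of either other subset (limma, adjusted p = 0.831).

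The difference between CD8a- and ThPOK+ cells was of unequal size in the 2 hosts for 0 genes (0%) by limma, with 381 at an unadjusted p under 0.05 (3.59%), and for 0 and 429 with the hosts of replicate 1 exchanged. The smallest p belonged to Cldn15, an intestinal claudin of tight junctions (limma, adjusted p = 0.999). Over both hosts it was detected on 3 of 4 ThPOK+ and 0 of 4 CD8a- arrays, at least 1.75-fold higher in the former. Slc51b, a bile acid transporter subunit of enterocytes, was detected on 2 of 4 and 0 of 4 arrays, with ThPOK+ cells at least 1.28-fold higher. Both WT sets, as the intensity table labels them, are those whose ThPOK+ arrays were high in epithelial markers. Cd86, a costimulatory ligand of antigen-presenting cells, was detected on 2 of 4 ThPOK+ and 4 of 4 CD8a- arrays, and its differences were 1.67 and 1.96 in WT and -1.20 and -0.61 in TR sets (limma, adjusted p = 0.999).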

How the data were processed

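Total RNA was labelled and hybridised to 12 Illumina MouseRef-8 arrays. The authors deposited mean bead intensity per probe with a detection score, exported from GenomeStudio 1.0.6 without normalization, per the file headers. The score runs from 0 to 1, and 1 minus it was used as the detection p-value. The authors also deposited a table of log2 values, found here to be expressed per probe relative to the set median, with its rows matched to probes by value (25697 of 25697), and used only as an alternative.

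The limma 3.58.1 function neqc (offset 16, R 4.3.3) corrected background and normalized the intensities. Of 25697 probes, 20736 carried a current RefSeq symbol, 3841 an older one and 1120 the name in the file. A probe was kept if 2 or more arrays detected it at p under 0.05 (14635 probes), and the brightest probe stood for each gene, which left 10612 genes. The fit used all 12 arrays with the 4 sets as a block, 6 residual degrees of freedom (4 for the host difference), two-sided tests and Benjamini-Hochberg adjustment over all genes. No shared day or animal is given by the labels. Differences between replicates correlated at 0.356 to 0.657 in all 15 pairs of groups, within and across hosts. This shows an effect shared by arrays of 1 replicate number. It does not on its own show that the arrays of a set belong together. The number of arrays limits the precision. The fits were tested on simulated data.

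Named genes were the sorting genes, all called genes, the 12 smallest p in each direction with 1 direction in 4 of 4 sets, up to 4 smallest p per list, and 3 each way in the contrasts without calls. The comparison, the 30 lists and these rules were chosen with earlier results of these data known, and lists are described by counts and medians only. The list of ribosomal proteins was taken by symbol and includes 5 tested kinase genes (Rps6ka1, Rps6ka3, Rps6ka5, Rps6kb1 and Rps6kb2) and Rps19bp1, which encode no ribosomal protein. Alternatives changed the normalization, filter, probe rule, block, variance prior, marker covariates and arrays. Some genes that the naming rule picks, and 1 other motif searched, are not reported here.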

Additional observations from a re-analysis of the deposited data

Results flagged for a closer look

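Dixon's test was run within groups of 4 arrays, on genes of the text and on 30 list means, in ThPOK+ and in CD8a- cells. At its 95% critical value of 0.829, which chance passes in about 1 in 20 groups, 7 values stood apart from the other 3. Chance alone passes several of that many groups, so these values are a description only. In ThPOK+ cells, Ccr6 was at 9.925 in WT 1 against 10.64 to 10.79. Tnfrsf4 was at 8.156 in WT 2 against 7.272 to 7.401, Cxcr3 at 7.788 in WT 2 against 9.063 to 9.169, and Cd8a at 8.077 in WT 2 against 7.296 to 7.413. Cd4 was at 11.27 in TR 2 against 10.15 to 10.26, and the mean of the ribosomal protein list at 10.08 in TR 2 against 10.05 for the others. In CD8a- cells, Icos was at 9.557 in WT 2 against 8.315 to 8.436. Of the 7, 4 were on arrays of WT 2.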

How the results depend on the processing

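The count of 6 called genes moved with most choices. It was 40 with quantile normalization without background correction, 31 with median scaling, 56 in the deposited log2 table, 22 with the mean of the probes of a gene and 58 with an intensity trend in the variance prior, and all 6 genes were among the calls in each of these. It was 7 with no filter on dim probes (5 of the 6) and 8 with detection on 4 arrays (all 6). When the replicate block was the number alone it was 5 (4 of the 6). With no replicate block and host as a term it was 2. It was 3 with the Paneth and goblet covariate (0 of the 6), 14 with the epithelium covariate, 0 with the naive covariate (551 at an unadjusted limma p under 0.05) and 0 with only the 8 arrays compared (909). Leaving out 1 array gave 0 to 14, and leaving out 1 set 0 to 1. Some alternatives were chosen after seeing the data. It was 14 without the ThPOK+ array of WT 1 and the CD8a+ array of WT 2, both high in epithelial markers (3 of the 6). It was 0 when the ThPOK+ array of WT 2 was left out too (827 unadjusted), and 0 without the 2 arrays high in naive markers (556).

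CD8a- cells against the mean of the others gave 0 genes under each alternative except the deposited log2 table, which gave 1 gene, Ccr6 at -1.305 (limma, adjusted p = 0.00103). CD8a+ against CD8a- cells and the host difference gave 0 under each alternative run, including the fits without the replicate block. Among single genes, the sign turned for Cd8b1 under median scaling (-0.001064), without the ThPOK+ array of WT 2 (-0.01599) or TR 2 (-0.09299), without the CD8a- array of TR 1 (-0.01902) or TR 2 (-0.2187) and without set TR 2 (-0.2342), while the leave-out of 1 array gave up to 0.3657. It turned for Plcd4 with no filter (-0.05723), and for Cd4 without those 3 arrays (-0.06682) and without the 2 naive-high arrays (-0.0183). The cause was not tested. Of the other values of single genes under an alternative, 1753 kept their side of the threshold, 135 passed it and 115 no longer did. Over 32 alternatives the median of the Th17 list stayed between -2.05 and -1.02, that of the cytotoxic effectors between 0.41 and 0.77, and that of the naive list between -1.61 and -0.02. The median of the epithelial list ranged from -1.77 to 0.55. Runx3, with no detected signal, could not be compared.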

Other observations

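Some genes outside the naming rule, chosen after their values were seen, had the same direction in 4 of 4 sets and did not pass the threshold. Mras, a small GTPase of the Ras family, was detected on 0 of 4 ThPOK+ and 4 of 4 CD8a- arrays, at least 3.06-fold higher in the second group (limma, adjusted p = 0.0972). Glp1r, the receptor of glucagon-like peptide 1, was at 7.16 in ThPOK+ and 9.16 in CD8a- cells, a difference of 2.01 ± 0.39 (limma, adjusted p = 0.119). Soat2, a cholesterol esterification enzyme, differed by 1.58 ± 0.30 (limma, adjusted p = 0.113), and Pygl, a glycogen phosphorylase, by 1.31 ± 0.22 (limma, adjusted p = 0.0751). Chst11 and Chsy1, enzymes that sulphate and build chondroitin chains, differed by 1.09 ± 0.19 and 1.25 ± 0.21 (limma, adjusted p = 0.0842 and 0.0751). S100a4, a calcium-binding protein of memory T cells, was detected on 4 of 4 ThPOK+ and 1 of 4 CD8a- arrays and differed by -1.80 ± 0.33 (limma, adjusted p = 0.0976). Epas1, a hypoxia-inducible factor, differed by -1.44 ± 0.26 (limma, adjusted p = 0.091). Foxp3, the regulatory T cell factor, differed by -1.30 ± 0.42 (limma, adjusted p = 0.422) and Maf, a factor of Th17 cells, by -1.73 ± 0.39 (limma, adjusted p = 0.167).

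Lists with medians nearer to that of all genes were the interferon response at -0.17, proliferation at 0.08, and immediate early and heat shock genes at -0.03. Inhibitory receptors were at -0.03, the TGF-beta and retinoic acid list at 0.01 and ribosomal proteins at -0.16. Of the 63 tested genes of the ribosomal list, 17 were lower in 4 of 4 sets (all genes: 8.37%). The lists of innate lymphoid and NK cells and of myeloid cells had medians of 0.02 and -0.07, the Bcl2 family 0.19, cytokine receptors -0.32, follicular helper T cells -0.26 and erythroid cells -0.34. Medians near 0 hid shared directions in some of these lists. In 4 of 4 sets, 7 of 23 tested interferon response genes were lower and 0 higher (all genes: 8.37% and 9.58%). For cytokine receptors it was 8 lower and 1 higher of 15, with Il1r1 called, and for follicular helper genes 3 lower and 0 higher of 8. The list of gamma-delta and CD8ab T cells had 2 tested genes and a median of -0.31. Median and mean had opposite signs for the Bcl2 family (mean -0.02), inhibitory receptors (mean 0.12), immediate early and heat shock genes (mean 0.06) and the TGF-beta and retinoic acid list (mean -0.08).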
